A study of Mus musculus with 4 samples.

Results

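The Hox cluster genes were described in tumor-associated macrophages (TAMs) from mouse neuroblastoma. They were chosen by name, as every protein-coding gene called Hoxa, Hoxb, Hoxc or Hoxd followed by a number, which gave 39 of the 54532 genes in the count table. The rule itself uses names alone. The Hoxa cluster held 11 of them (chr6:52155590-52260880), Hoxb 10 (chr11:96194316-96368256), Hoxc 9 (chr15:102921103-103036852) and Hoxd 9 (chr2:74668310-74765142), on GRCm38.

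Hox proteins are homeodomain transcription factors that give cells along the head-to-tail axis their positional identity. Each cluster is a row of genes whose order on the chromosome matches the order of their expression along the body, with low numbers anterior and high numbers posterior, and genes of the same number in different clusters are paralogs that arose by duplication. Adult fibroblasts, smooth muscle and other mesenchymal cells keep a Hox pattern that reflects where in the body they come from. In blood, Hoxa9, Hoxb4 and their neighbours are active in stem and progenitor cells and decline as myeloid cells mature.

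Transcripts were measured by polyA RNA sequencing of cells that magnetic beads against CD11b and F4/80 pulled from tumors of NB9464, a mouse neuroblastoma cell line. Both groups were untreated C57BL/6 mice that carried implanted NB9464 tumors for 40 days. Mice of the SYK KO group carry floxed Syk and a Cre recombinase driven by the lysozyme M gene, which is active in macrophages, monocytes and neutrophils, so Syk is intact in tumor, stromal and lymphoid cells. The SYK WT group is the control of that cross, and whether these controls carry Cre or the floxed allele is not given in the sources used here. The labels give 2 libraries per group, M7 and M8 for SYK WT and M9 and M10 for SYK KO, and do not say how many animals each library holds. The methods give an age of 4 to 6 weeks at implantation, for the Syk strains as well as for C57BL/6 mice. The labels also state that the RNA came from bone marrow-derived macrophages, and the series title names an adoptive transfer experiment, so the source of the cells is not described in one way.

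The labels were checked against the targeted gene and marker genes. Total counts were 20755886 to 23518045 per library. Syk, the targeted gene, had 27.9 and 23.2 CPM (read counts scaled by TMM to a common library total) in M7 and M8 and 196 and 160 CPM in M9 and M10, so it was higher in the libraries labelled SYK KO (log2 fold change 2.80, adjusted p = 0.000674, edgeR quasi-likelihood test). Lyz2, the gene whose promoter drives Cre, had 296 and 208 CPM in M7 and M8 and 8.64 and 20.2 CPM in M9 and M10. It was lower in the libraries labelled SYK KO (log2 fold change -4.13, adjusted p = 0.00156), opposite to Syk and to the macrophage markers below. Because Syk went against its label, every direction below is given for the libraries as labelled. With TMM scaling, each of 10 macrophage markers passed the test in the direction of SYK KO, with summed levels of 776 to 1122 CPM in SYK WT and 5799 to 9212 CPM in SYK KO. The 6 pan-leukocyte genes did so too. Of 8 fibroblast markers, 4 were lower and 0 higher, with summed levels of 12420 to 14300 CPM in SYK WT and 4056 to 4947 CPM in SYK KO, and of 8 pericyte and smooth muscle markers 6 were lower. Over all genes tested, 22.7% were called higher and 16.7% lower. Mitochondrial genes took 2.20% and 2.34% of the counts in M7 and M8 and 6.00% and 15.9% in M9 and M10. Of the 8 neuroblastoma markers, Th and Dbh had 0 counts in every library, and Hand2 had 178 to 301 CPM. Gata3 had 5, 7, 24 and 40 counts in M7, M8, M9 and M10. It passed edgeR's expression filter through the SYK KO libraries alone, so its test is not given. The part of cell makeup and RNA quality in any Hox value was not tested, and in bulk RNA fewer cells of a type and less RNA per cell cannot be told apart.

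Most Hox genes were at or near the limit of detection, and most of the counts came from a few genes of the Hoxc and Hoxd clusters. Of the 39 genes, 34 had at least 1 count in some library, 18 had at least 1 count in every library, and 15 had at most 3 counts in each of the 4 libraries. A count of 3 was taken as the smallest detectable signal and corresponded to 0.109 to 0.163 CPM, which covers counting error only. Hoxa13, Hoxb1, Hoxc12, Hoxc13 and Hoxd1 had 0 counts throughout, which this depth allows for up to that level. The most posterior genes were nearly empty: the 9 genes of groups 11 to 13 reached at most 6 counts, and the 4 genes of group 13 at most 1. Within Hoxc and Hoxd the counts were concentrated at Hoxc4 and Hoxc6 and at Hoxd8 and Hoxd9. Hoxc5 had at most 36 counts, and the neighbouring Hoxc8 and Hoxd10 had at most 16 and 10.

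**Figure D1:**
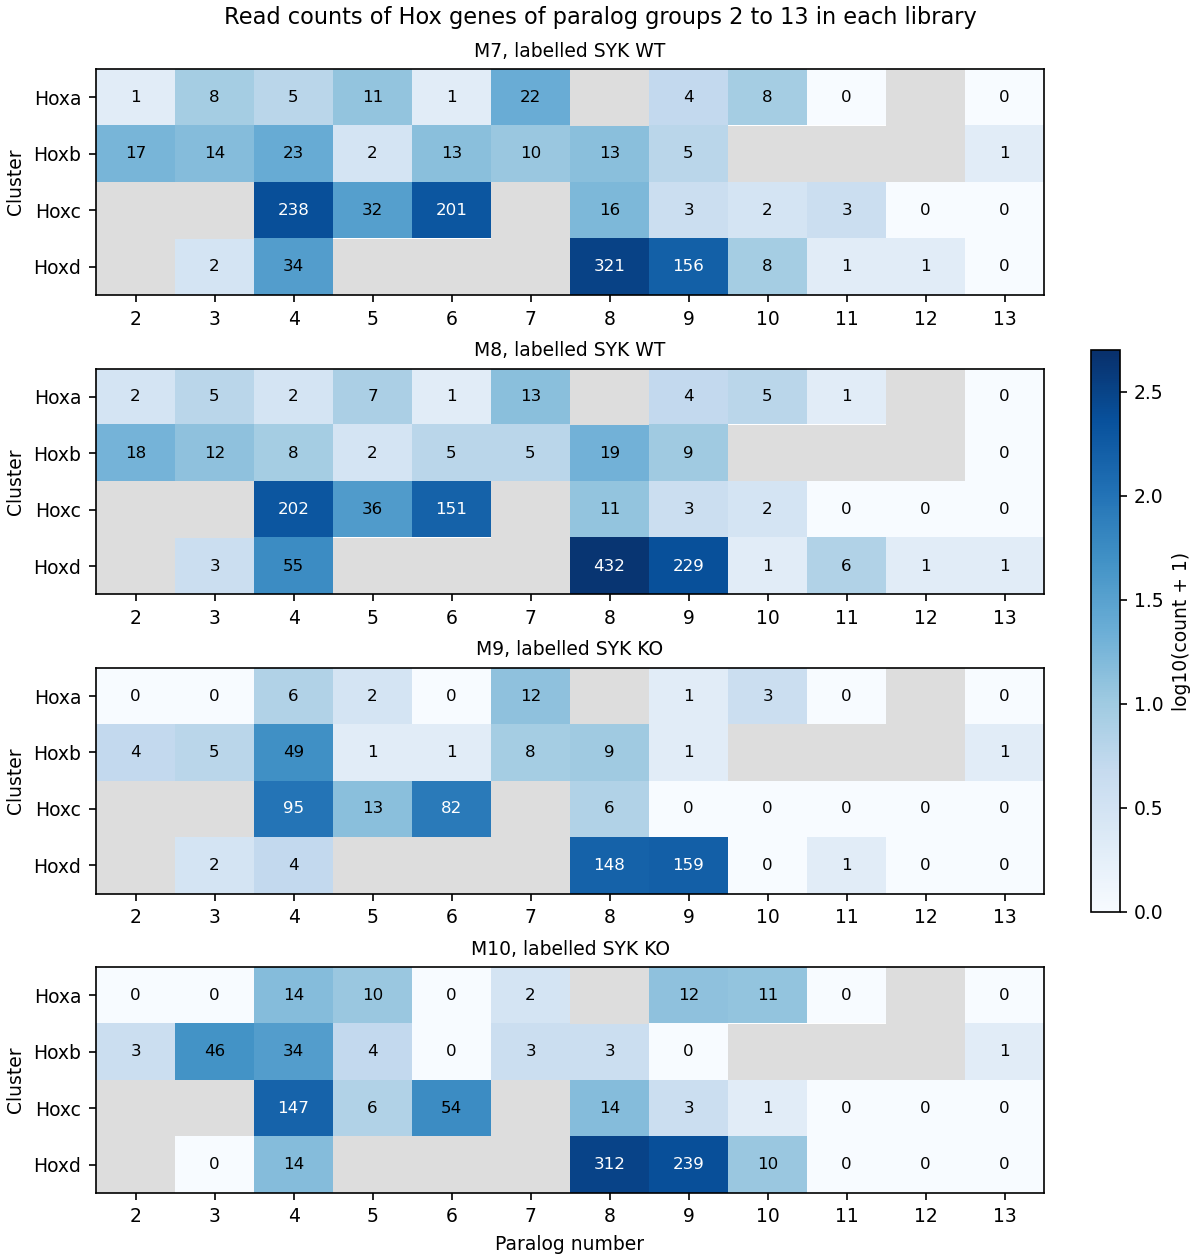
Read counts of the 36 Hox genes of paralog groups 2 to 13 in each library, with cluster on the vertical axis, paralog number on the horizontal axis and shading as log10(count + 1); grey cells are paralogs the mouse lacks. Hoxc4, Hoxc6, Hoxd8 and Hoxd9 are the darkest cells in all 4 libraries, and paralog groups 11 to 13 hold at most 6 counts.

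The same 4 genes led in every library when counts were divided by exon length. Hoxd8 had 4.27, 6.41, 2.62 and 6.20 CPM per kb of exon in M7, M8, M9 and M10, Hoxd9 had 2.66, 4.36, 3.61 and 6.10, Hoxc4 had 3.38, 3.20, 1.80 and 3.12, and Hoxc6 had 3.04, 2.55, 1.65 and 1.22. Together they took 77.8%, 81.1%, 78.4% and 79.7% of all Hox counts in M7, M8, M9 and M10 (exact 95% confidence intervals between 75.0% and 83.2%). Their order differed between libraries: Hoxd8 led in M7, M8 and M10 and Hoxd9 in M9, so no order is given among the 4. The fifth gene was Hoxd4 in M7 and M8, at 0.421 and 0.759 CPM per kb, and Hoxb4 in M9 and M10, at 0.927 and 0.722 CPM per kb, below the 1.65 and 1.22 of Hoxc6.

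**Figure D2:**
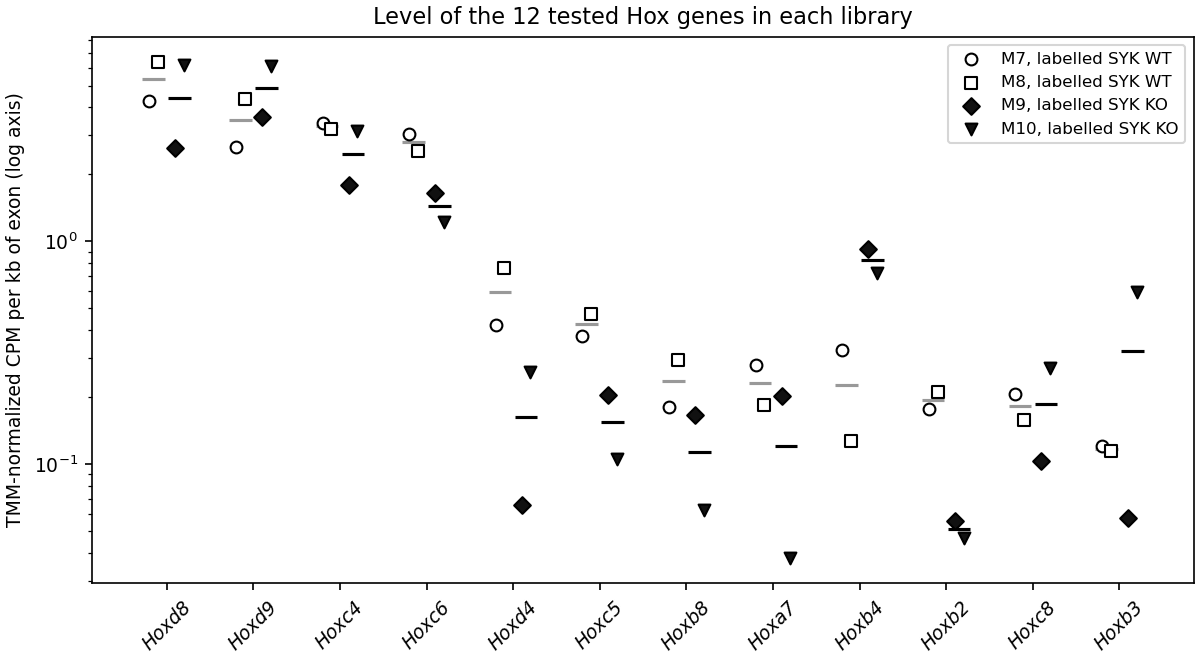
TMM-normalized CPM per kb of exon (log axis) for the 12 Hox genes that passed the expression filter, with one point per library and a bar at each group mean. Hoxd8, Hoxd9, Hoxc4 and Hoxc6 lie above 1 CPM per kb in every library, and Hoxb4 is the gene whose 2 SYK KO points lie above both SYK WT points.

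The sequence at the starts of these genes is shown so that leading genes can be compared with others, among them Hoxd1, which had no counts. RefSeq promoters on GRCm38.p6, 300 bases from 250 before to 50 after the start, were given for 22 of the 39 genes, 24 promoters in all, and for 7 of the 12 genes that were tested. Hoxc6, Hoxb2, Hoxb3, Hoxc5 and Hoxc8 had no entry. Hoxd8 (chr2:74704365-74704664), Hoxd9 (chr2:74697513-74697812) and Hoxc4 (chr15:103034145-103034444) are leading genes, Hoxb4 (chr11:96318017-96318316) is the one tested gene with both SYK KO libraries above both SYK WT libraries, and Hoxb8 (chr11:96281655-96281954) is a tested gene with a PBX-HOX motif. Hoxd1 is at chr2:74762730-74763029. The Hoxc4 window is at a RefSeq start that lies inside the longer GENCODE interval of that gene. All lie on the plus strand, and capitals mark CG dinucleotides.
Hoxd8: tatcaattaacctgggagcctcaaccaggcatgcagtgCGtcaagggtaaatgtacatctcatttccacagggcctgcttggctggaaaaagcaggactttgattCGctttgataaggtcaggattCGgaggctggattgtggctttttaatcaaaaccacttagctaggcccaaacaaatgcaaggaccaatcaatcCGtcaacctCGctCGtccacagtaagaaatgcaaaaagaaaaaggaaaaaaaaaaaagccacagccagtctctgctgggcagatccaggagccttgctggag
Hoxd9: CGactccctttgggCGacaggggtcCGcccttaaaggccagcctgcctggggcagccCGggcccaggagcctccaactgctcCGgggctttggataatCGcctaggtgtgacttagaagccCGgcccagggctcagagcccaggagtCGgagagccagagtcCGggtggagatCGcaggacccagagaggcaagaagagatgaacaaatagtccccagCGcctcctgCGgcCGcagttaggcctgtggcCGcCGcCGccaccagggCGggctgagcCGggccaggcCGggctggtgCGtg
Hoxc4: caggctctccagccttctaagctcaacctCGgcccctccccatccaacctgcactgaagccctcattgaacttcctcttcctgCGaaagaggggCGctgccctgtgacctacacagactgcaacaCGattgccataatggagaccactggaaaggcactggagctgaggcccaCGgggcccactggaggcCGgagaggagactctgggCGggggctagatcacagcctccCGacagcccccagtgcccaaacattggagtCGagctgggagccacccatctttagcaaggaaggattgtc
Hoxb4: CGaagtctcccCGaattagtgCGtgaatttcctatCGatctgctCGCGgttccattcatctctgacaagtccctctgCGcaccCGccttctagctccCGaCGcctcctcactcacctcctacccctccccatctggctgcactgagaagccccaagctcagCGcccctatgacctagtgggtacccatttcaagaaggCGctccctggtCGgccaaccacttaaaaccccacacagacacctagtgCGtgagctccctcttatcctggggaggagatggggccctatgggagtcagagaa
Hoxb8: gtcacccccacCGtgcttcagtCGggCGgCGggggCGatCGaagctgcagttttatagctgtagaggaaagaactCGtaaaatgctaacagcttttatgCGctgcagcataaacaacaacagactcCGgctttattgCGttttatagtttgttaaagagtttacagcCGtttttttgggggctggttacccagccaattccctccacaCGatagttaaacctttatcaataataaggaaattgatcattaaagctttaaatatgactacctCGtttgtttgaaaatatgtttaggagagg
Hoxd1: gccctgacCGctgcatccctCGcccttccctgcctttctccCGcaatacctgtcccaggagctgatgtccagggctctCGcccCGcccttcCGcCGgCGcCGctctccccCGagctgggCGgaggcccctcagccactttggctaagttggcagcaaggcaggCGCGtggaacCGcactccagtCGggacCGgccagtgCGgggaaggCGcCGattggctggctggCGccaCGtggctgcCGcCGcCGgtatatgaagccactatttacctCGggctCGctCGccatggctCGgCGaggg
The number of CG dinucleotides ran from 4 to 45 over the Hox promoters, with a median of 14.5, against a median of 7 over all 32817 promoters. It was 6 for Hoxd8, 20 for Hoxd9 and 9 for Hoxc4, and it was 45 for Hoxa13, 29 for Hoxd1 and 10 for Hoxb1, which had no counts in any library. The median GC content was 57.7% for Hox promoters and 52.7% for all promoters. The PBX-HOX motif TGATNNAT, which Hox and PBX proteins bind together, was searched on both strands and was present in 4 of the 24 Hox promoters (16.7%) and in 8.86% of all promoters. It was found for Hoxa2, Hoxb1, Hoxb8 and 1 of the 2 Hoxd11 promoters. The MEIS motif TGACAG was present in 2 Hox promoters (8.33%) and 19.2% of all, and TATAAA in 4 (16.7%) and 13.6% of all. A match describes letters in these windows and is no measured binding.

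No Hox gene passed the test between the libraries labelled SYK KO and SYK WT. In all, 12 of the 39 genes passed edgeR's expression filter, and 0 were called higher or lower at an adjusted p under 0.05 over 16451 genes, where 22.7% of all genes tested were called higher and 16.7% lower. At an unadjusted p under 0.05 there were 3, Hoxb4 (positive) and Hoxb2 and Hoxc6 (negative), and DESeq2 also called 0 of the 19 Hox genes to which it gave an adjusted p. The log2 fold change was positive for 4 and negative for 8 of the 12, with a median of -0.67, against 0.02 over all genes tested. For 6 of the 12, or 50%, both SYK KO libraries were below both SYK WT libraries, as they were for 37.2% of all genes tested. For 1 of the 12, or 8.33%, both were above, against 38.0% of all genes tested. Only Hoxc4, Hoxc6, Hoxd8 and Hoxd9 had at least 10 counts in every library. Hoxb2 and Hoxb8 passed the filter through SYK WT alone, and Hoxc5 and Hoxd4 would not have passed without the SYK WT libraries. Hoxb4 would not have passed without the SYK KO libraries. These 3 sentences limit the counts and shares above, because the filter let such genes in through the group where they were high. The 27 genes that were not tested had at most 14 counts in any library, so depth limits what they can show.

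The Hoxd cluster carried the most Hox counts in every library, and its leading genes overlapped between the groups. Hoxd8 (chr2:74704615-74707933), a central gene expressed in trunk mesoderm, had 321 and 432 counts in M7 and M8 and 148 and 312 in M9 and M10. Its level was 14.6 ± 4.16 CPM in SYK WT and 12.1 ± 6.94 CPM in SYK KO (SD, n = 2), and M9 was lowest (log2 fold change -0.28, SE 0.433, adjusted p = 0.642). Hoxd9 (chr2:74697727-74700208), which patterns limbs and lower trunk, had 156 and 229 counts in M7 and M8 and 159 and 239 in M9 and M10, or 7.50 ± 2.57 and 10.4 ± 3.75 CPM (log2 fold change 0.47, SE 0.383, adjusted p = 0.368). Its groups overlapped, with M10 highest and M7 lowest. Hoxd4 (chr2:74711929-74729160), a gene of hindbrain and neck-level patterning, had 34 and 55 counts in M7 and M8 and 4 and 14 in M9 and M10 (log2 fold change -1.86, SE 0.814, adjusted p = 0.114). Both SYK KO libraries were below both SYK WT libraries. Of its exon bases 52.3% are shared with other annotated genes, mainly the read-through gene Gm28230 and Hoxd3, so counts cannot be assigned to Hoxd4 with certainty. Hoxd3 had 2, 3, 2 and 0 counts, Hoxd10 8, 1, 0 and 10, Hoxd11 1, 6, 1 and 0, Hoxd12 1, 1, 0 and 0, and Hoxd13 0, 1, 0 and 0 in M7, M8, M9 and M10.

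Leaving out 1 library moved the Hoxd values. Without M10, the log2 fold change was -1.01 for Hoxd8, -3.11 for Hoxd4 and -0.86 for Hoxc4, while without M9 Hoxd8 was at 0.13. The lone SYK KO library is then assumed to vary like the other group.

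In the Hoxc cluster 3 of 4 tested genes had both SYK KO libraries below both SYK WT libraries, as did 37.2% of all genes tested. Hoxc4 (chr15:103018934-103036852) had 238 and 202 counts in M7 and M8 and 95 and 147 in M9 and M10, or 8.45 ± 0.323 and 6.31 ± 2.40 CPM (log2 fold change -0.42, SE 0.351, adjusted p = 0.374). M10, at 8.01 CPM, was close to the lower SYK WT library at 8.22 CPM. Hoxc6 (chr15:102998257-103011881), a gene of thoracic patterning, had 201 and 151 counts in M7 and M8 and 82 and 54 in M9 and M10, or 6.74 ± 0.837 and 3.46 ± 0.734 CPM. Its log2 fold change was -0.96 with an SE of 0.354 and an adjusted p of 0.0739, and the groups did not overlap in CPM. Hoxc5 had 32, 36, 13 and 6 counts in M7, M8, M9 and M10 (log2 fold change -1.44, adjusted p = 0.131), a further gene with no overlap between groups. Hoxc8, which patterns the lower thorax, had 16, 11, 6 and 14 counts and a log2 fold change of 0.02 (SE 0.787), with overlapping groups. Without M9, the log2 fold changes of Hoxc6 and Hoxc5 were -1.28 and -2.08. The posterior Hoxc genes were nearly empty, with 3, 3, 0 and 3 counts for Hoxc9, 2, 2, 0 and 1 for Hoxc10 and 3, 0, 0 and 0 for Hoxc11.

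The Hoxb cluster held the gene with the largest positive log2 fold change among those tested. Hoxb4 (chr11:96318267-96321638), a regulator of blood stem cell self-renewal that is also expressed in trunk mesoderm, had 23 and 8 counts in M7 and M8 and 49 and 34 in M9 and M10, or 0.582 ± 0.363 and 2.12 ± 0.372 CPM. Its log2 fold change was 1.85 (SE 0.676, adjusted p = 0.0719), and both SYK KO libraries were above both SYK WT libraries. M8 had 8 counts, so Hoxb4 would not have passed the expression filter without the SYK KO libraries. Its test carries that limit. The log2 fold change of Hoxb4 was 2.02 without M10, 2.68 without M7, 1.32 without M8 and 1.56 without M9. The gene beside it, Hoxb3, had 14, 12, 5 and 46 counts in M7, M8, M9 and M10, so M10 was high and M9 low within the same group (log2 fold change 1.44, SE 1.05, adjusted p = 0.312). Without M10 the Hoxb3 value was -1.01, and without M9 it was 2.23. Of the Hoxb3 exon bases 52.9% lie opposite Hoxb3os, an antisense gene with at most 3 counts, and strand use in counting is not stated in the sources used here.

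Hoxb2 and Hoxb8, both tested, had both SYK KO libraries below both SYK WT libraries, as did 37.2% of all genes tested. For Hoxb8 the gap was small, with 0.474 CPM in M7 and 0.437 CPM in M9. Hoxb2, which patterns hindbrain segments, had 17 and 18 counts in M7 and M8 and 4 and 3 in M9 and M10 (log2 fold change -1.88, SE 0.765, adjusted p = 0.0952). Hoxb8 had 13, 19, 9 and 3 counts (log2 fold change -1.02, SE 0.822, adjusted p = 0.357). Both genes had under 10 counts in each SYK KO library, so they passed the expression filter through SYK WT alone. Their tests carry that limit. Hoxb6 and Hoxb9, not tested, had 13, 5, 1 and 0 and 5, 9, 1 and 0 counts. They were also lower in both SYK KO libraries, but no share over all genes was computed for counts this low. Hoxb7 had 10, 5, 8 and 3 counts, Hoxb5 2, 2, 1 and 4, and Hoxb13 1, 0, 1 and 1. The groups of these last 3 overlapped or sat at or near the floor of 3 counts.

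The Hoxa cluster contributed few counts, including at the genes best known from blood progenitors. Hoxa7 (chr6:52214491-52221854), the only tested Hoxa gene, had 22 and 13 counts in M7 and M8 and 12 and 2 in M9 and M10 (log2 fold change -0.92, SE 0.911, adjusted p = 0.456), with overlapping groups. Hoxa9, which with Meis1 sustains myeloid progenitors, had 4, 4, 1 and 12 counts, and Hoxa10 had 8, 5, 3 and 11, so in both genes M10 was highest and M9 lowest. Hoxa4 had 5, 2, 6 and 14 counts, and Hoxa5 had 11, 7, 2 and 10. For Hoxa4 both SYK KO libraries were above both SYK WT libraries, but M9 and M7 were close. No share over all genes was computed for counts this low. Hoxa3 had 8 and 5 counts in M7 and M8 and 0 in both SYK KO libraries, which is at least 1.60-fold lower against the floor of 3 counts per library, averaged over the SYK KO libraries. Hoxa2 had 1, 2, 0 and 0 counts, Hoxa6 1, 1, 0 and 0, and Hoxa11 0, 1, 0 and 0.

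Shares of all Hox counts, which do not depend on how libraries are scaled to each other, differed between clusters and between libraries. Hoxd took 44.4% and 58.2% of the Hox counts in M7 and M8 and 50.9% and 61.0% in M9 and M10. Hoxc took 42.1% and 32.4% in M7 and M8 and 31.8% and 23.9% in M9 and M10, where M8 and M9 were within each other's confidence intervals. Hoxb took 8.33% and 6.24% in M7 and M8 and 12.8% and 9.97% in M9 and M10, where M7 and M10 were within each other's confidence intervals. Hoxa took 3.20% to 5.20% in all 4 libraries. Hoxb4 alone took 1.95% and 0.639% in M7 and M8 and 7.94% and 3.61% in M9 and M10. Hoxd9 took 13.3% and 18.3% in M7 and M8 and 25.8% and 25.3% in M9 and M10, whereas Hoxd4 took at least 2.89% in M7 and M8 and 0.648% and 1.48% in M9 and M10. Of the other leading genes, Hoxd8 and Hoxc6 overlapped between groups. Hoxd8 took 27.3%, 34.5%, 24.0% and 33.1% in M7, M8, M9 and M10, and Hoxc6 took 17.1%, 12.1%, 13.3% and 5.73%, with M9 above M8. Hoxc4 took 20.2% and 16.1% in M7 and M8 and 15.4% and 15.6% in M9 and M10. Its shares in M8, M9 and M10 were within each other's confidence intervals. By paralog number, groups 4 to 8 took 80.0% and 75.9% in M7 and M8 and 70.7% and 65.4% in M9 and M10, and groups 9 to 13 took 16.3% and 20.9% and then 26.9% and 29.4%. Groups 10 to 13 took at most 2.44%, and Hoxd9 held 156 of the 192 counts of groups 9 to 13 in M7, 229 of 262 in M8, 159 of 166 in M9 and 239 of 277 in M10. No permutation test of 2 libraries against 2 can go below a two-sided exact p of 0.333, and shares were not tested.

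**Figure D3:**
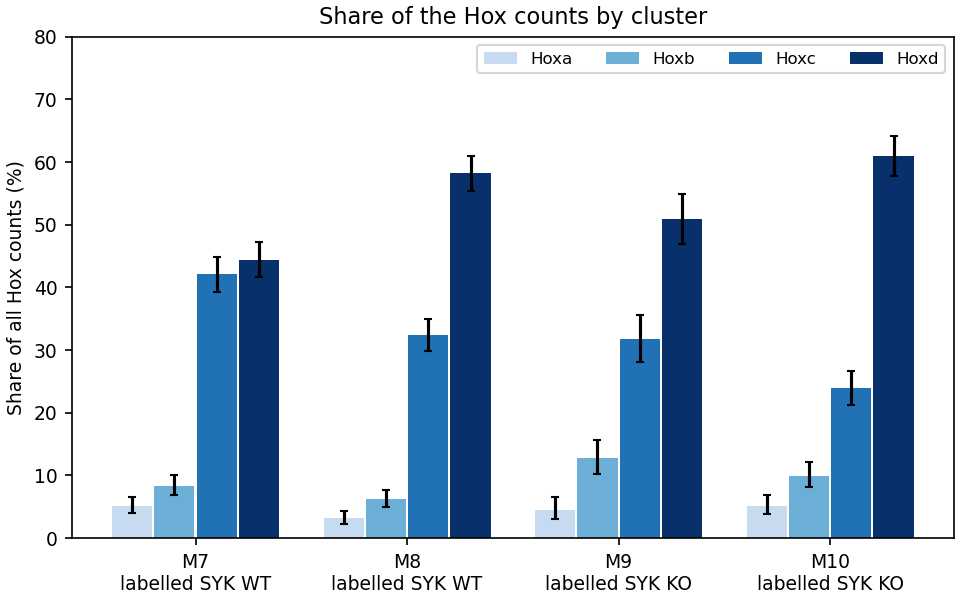
Share of all Hox counts in percent taken by each cluster, one group of bars per library, with exact 95% binomial confidence intervals that cover counting error only. Hoxc and Hoxd bars dominate every library, and the Hoxc bar ranges from 23.9% in M10 to 42.1% in M7.

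The total Hox signal depended on what it was measured against. The 39 genes summed to 1177, 1251, 617 and 943 counts in M7, M8, M9 and M10, or 42.9, 50.9, 30.0 and 51.4 TMM-normalized CPM, so the groups overlapped. Per 1000 counts of the 8 fibroblast markers, Hox counts were 3.46 and 3.56 in M7 and M8 and 7.39 and 10.4 in M9 and M10. This sum mainly follows Col1a1 and Col3a1, with 155298 and 168917 of 340578 counts in M7 and 37306 and 40985 of 83550 in M9. Of the 8 markers 4 were called lower, but Dcn, Lum, Fap and Fbln1 were not (log2 fold change -0.28, -0.63, -0.07 and -0.03). Hox counts per single fibroblast marker were not computed. Per 1000 counts of the 10 macrophage markers they were 38.2 and 65.6 in M7 and M8 and 3.25 and 8.86 in M9 and M10. Both SYK KO libraries were therefore above both SYK WT libraries on the first measure and below them on the second. Scaling libraries to macrophage markers moved the median of all genes to -2.79 and called 10 Hox genes lower, and scaling to fibroblast markers moved that median to 0.92 and called Hoxb4 and Hoxd9 higher. With library size alone the median of all genes was -0.52, and Hoxb2, Hoxc6 and Hoxd4 were called lower. Under macrophage scaling Syk itself had a log2 fold change of -0.02, and under pan-leukocyte scaling -0.87. Under fibroblast scaling Hoxc6 was at -0.03 and Hoxb8 at -0.07, and Hoxb2, Hoxc5 and Hoxd4 were at -0.98, -0.50 and -1.01, none of them called.

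**Figure D4:**
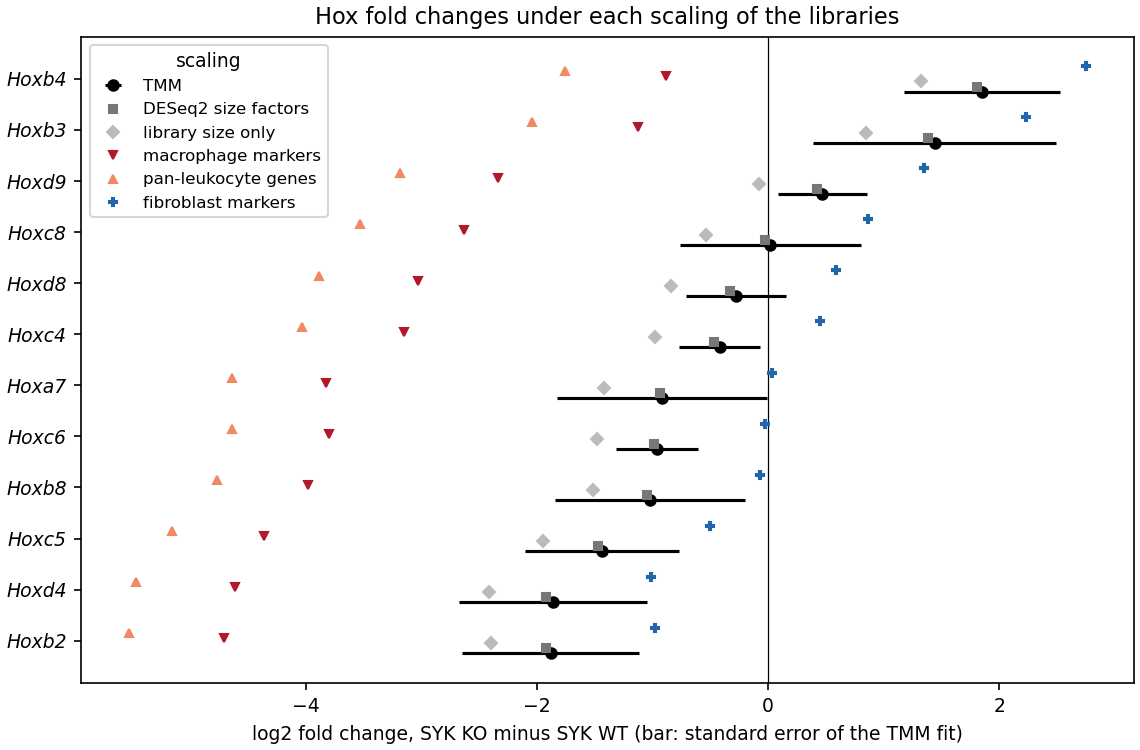
Log2 fold change, SYK KO minus SYK WT, of the 12 tested Hox genes under 6 scalings of the libraries, with bars for the standard error of the TMM fit. Each scaling shifts all genes by a similar amount, so the order of genes is not independent between scalings, and the median runs from a value of -4.33 with pan-leukocyte genes to 0.24 with fibroblast markers.

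Genes that act with Hox proteins were detected in every library, and 3 of 10 were lower in the libraries labelled SYK KO. The TALE homeodomain proteins PBX, MEIS and PKNOX bind DNA beside Hox proteins. Of 10 genes in this list, all tested, 3 fell in the libraries labelled SYK KO and 0 rose, where 16.7% of all genes tested fell and 22.7% rose. Among the 3 were Meis2 (log2 fold change -0.77, adjusted p = 0.0311) and Pbx4 (-1.41, 0.0345). Meis2 had 56.0 and 65.8 CPM in M7 and M8 and 29.6 and 42.0 CPM in M9 and M10, with no overlap between groups. Meis1 had 47.4, 56.6, 30.6 and 43.9 CPM and did not pass the test (log2 fold change -0.48, adjusted p = 0.126). Under fibroblast scaling the value of Meis2 turned to 0.12, and Pbx4 (-0.51) was no longer called. The list median was -0.25.

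Trithorax proteins keep Hox genes active and Polycomb proteins keep them silent through histone methylation. All 23 genes of this list were tested, 2 rose and 5 fell, against 22.7% and 16.7% of all genes tested, and the median was -0.14. Ezh2, the Polycomb methyltransferase of dividing cells, rose (log2 fold change 0.58, adjusted p = 0.0286) from 27.0 ± 1.42 CPM in SYK WT to 40.5 ± 1.16 CPM in SYK KO (SD, n = 2). Ezh1, its counterpart in resting cells, fell (-1.05, 0.00593) from 48.3 and 54.7 CPM to 26.9 and 22.7 CPM. Cbx7, a Polycomb reader, fell most (-1.79, 0.00380), and the Trithorax methyltransferases Kmt2a (-0.57, 0.0351) and Kmt2b (-0.91, 0.00722) and the demethylase Kdm6a (-1.06, 0.0140) fell too. Rbbp5, a core Trithorax subunit, rose (0.54, 0.0457). Directions of Ezh2 and Rbbp5 turned negative under macrophage and pan-leukocyte scaling. With library size only Ezh2 was at 0.05 and Rbbp5 at 0.00, neither called, and with DESeq2 size factors Rbbp5 was not called (adjusted p = 0.0556). Under fibroblast scaling Kmt2a turned to 0.33, and Kmt2b (-0.01), Kdm6a (-0.11) and Ezh1 (-0.13) were no longer called.

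Retinoic acid, which switches on anterior Hox genes in embryos, was represented by 17 genes with the Cdx regulators, of which 13 were tested. In the test 3 rose and 3 fell, near the 22.7% and 16.7% of all genes tested, with a median of -0.09. Aldh1a2, which makes retinoic acid, rose by 5.84 on the log2 scale (adjusted p = 0.000729), from 0.438 and 0.203 CPM in M7 and M8 to 21.5 and 16.4 CPM in M9 and M10. M8 had 5 counts, so Aldh1a2 would not have passed the expression filter without the SYK KO libraries. The receptors Rxra (1.21, 0.00361) and Rara (0.78, 0.0118) rose, and the receptor Rxrb (-0.51, 0.0329), the retinol transporter Stra6 (-0.99, 0.00497) and the degrading enzyme Cyp26b1 (-0.98, 0.0333) fell. The direction of Aldh1a2 held under all 6 scalings, and those of Rxra and Rara turned negative under macrophage and pan-leukocyte scaling. With library size only Rara was at 0.25 and not called. Under fibroblast scaling Rxrb turned to 0.40, and Stra6 (-0.07) and Cyp26b1 (-0.05) were no longer called.

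Factors outside the clusters that also mark body position were lower in part. Of 16 such genes 10 were tested, 4 fell and 0 rose, where 16.7% of all genes tested fell, with a median of -1.07. The 8 fibroblast markers had a median of -1.06, with 4 called lower, and their part in these values was not tested. Prrx1, a limb and trunk mesenchyme factor, fell (log2 fold change -1.91, adjusted p = 0.00152) from 232 and 302 CPM in M7 and M8 to 66.8 and 75.3 CPM in M9 and M10. Prrx2 (-1.41, 0.00251), Tbx18 (-1.75, 0.0119) and Emx2 (-0.83, 0.0103) fell as well, though under fibroblast scaling Emx2 turned to 0.08 and Prrx2 (-0.50) and Tbx18 (-0.86) were no longer called. Against Prrx1, the Hox total was 185 and 169 counts per 1000 Prrx1 counts in M7 and M8 and 449 and 682 in M9 and M10, so both SYK KO libraries were above both SYK WT libraries.

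The clusters also hold genes that are not Hox genes. Of 46 annotated inside the 4 intervals, 14 had a count in some library, and 3 passed the filter. Gm28230, the read-through gene of Hoxd3 and Hoxd4, had 17 and 32 counts in M7 and M8 and 0 in M9 and M10. It was at least 6.22-fold lower against the same floor. Gm28230 passed the expression filter through the SYK WT libraries alone, so its test is not given. The antisense Hoxd3os1 beside it had 33, 35, 2 and 9 counts and also passed through SYK WT alone, so its test is not given either. These overlapping genes of the Hoxd3 to Hoxd4 stretch, Hoxd4 included, were each low in M9 and M10 and share exon bases. Hotairm1, a non-coding RNA of the Hoxa cluster that is induced in maturing myeloid cells, had 31, 4, 66 and 6 counts in M7, M8, M9 and M10 (log2 fold change 1.44, adjusted p = 0.382), with M7 and M9 high and M8 and M10 low. All 7 microRNA genes inside the clusters had 0 counts, and polyA libraries do not capture mature microRNAs.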

How the data were processed

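PolyA RNA of TAMs was sequenced in 2 SYK WT and 2 SYK KO libraries. The authors mapped reads to mm10 (STAR 2.6.1d, Salmon 1.4.0 and SAMtools 1.9 are named in the submitters' processing notes) and deposited whole-number read counts per Ensembl gene, not normalized; how Salmon estimates became whole numbers is not given in the sources used here. The sequencer and read layout differ between the labels (paired reads, NovaSeq) and the methods (single reads, HiSeq). Groups came from the labels, which give no pairing or batch. Counts were analysed in R 4.3.3 with edgeR 4.0.16 (filterByExpr, TMM factors 0.787 to 1.223, glmQLFit and glmQLFTest) and Benjamini-Hochberg adjustment over 16451 genes at 0.05; adjusted p-values in the text are from this test unless another tool is named. DESeq2 1.42.0 was an alternative. The fits were also run on simulated data, and that outcome is not reported here. Replicate libraries differed by more than sampling noise (chi-square per degree of freedom 50.6 in SYK WT and 168 in SYK KO), and nothing says they came from separate animals, so p-values measure the spread between these libraries, which may be technical. An exact permutation test of 2 against 2 cannot go below 0.333. Without molecular identifiers, reads are not independent molecules, so intervals (exact Clopper-Pearson) and floors cover counting error only. Positions and exon lengths were from GENCODE M21 on GRCm38, which matched 54495 genes, and promoters from RefSeq. Named were the Hox genes, Syk, Lyz2, companion-list genes with an adjusted p under 0.05 (all tested members where fewer than 3 passed), genes inside the clusters and their nearest neighbours. Some genes of these lists are not reported here. Meis1 was named outside that rule, after its values were seen. The members and lists were chosen with earlier results of these data known. The alternatives were other scalings, count filters and thresholds, DESeq2, and each library left out in turn.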

Additional observations from a re-analysis of the deposited data

How the results depend on the processing

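Results were recomputed under other scalings, filters, thresholds and tools and with each library left out. No paired analysis was possible because the groups share no replicate numbers. The count of Hox genes called stayed at 0 in both directions with DESeq2 size factors, the DESeq2 Wald test and all genes with at least 1 count. With library size only, 1677 genes were called higher and 5411 lower, 3 Hox genes were called lower, and the Hox median was -1.20. The log2 ratios of summed Hoxa, Hoxb, Hoxc and Hoxd counts were then -0.50, -0.14, -1.21 and -0.62 (main values 0.07, 0.41, -0.66 and -0.06). With macrophage scaling, 125 and 14360 genes were called, 10 Hox genes were lower, the median was -3.48 and the Hoxa, Hoxb, Hoxc and Hoxd ratios were -2.61, -2.35, -3.43 and -2.84. With pan-leukocyte scaling these were 51 and 15293 genes, 10 Hox genes lower, -4.33, and -3.51, -3.22, -4.30 and -3.69. With fibroblast scaling they were 8225 and 669 genes, 2 Hox genes higher, 0.24, and 0.91, 1.29, 0.22 and 0.81. These shifts follow from the construction of each scaling. With at least 10 counts in every library 4 Hox genes were tested, 1 was called lower (Hoxc6) and the median was -0.42. At an adjusted p under 0.1, 1 Hox gene was higher (Hoxb4) and 2 were lower (Hoxb2 and Hoxc6). When calls also needed a log2 fold change of 1 or more in size, 2426 genes were called higher.

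Single genes also turned sign. Hoxc8 was -0.03 with DESeq2 size factors, -0.04 by the DESeq2 Wald test, -0.54 with library size only, -2.63 with macrophage and -3.53 with pan-leukocyte scaling. Hoxd9 was -0.08, -2.34 and -3.19 under the last 3, Hoxb3 was -1.13 and -2.04 and Hoxb4 was -0.88 and -1.76 under the last 2. With fibroblast scaling Hoxa7, Hoxc4 and Hoxd8 were 0.03, 0.45 and 0.59. Leaving out 1 library gave 1478 to 5010 genes higher, 807 to 4745 lower, 0 to 1 Hox genes higher and 0 to 3 lower, a Hox median of -0.83 to -0.56, and ratios of -0.49 to 0.38 for Hoxa, 0.20 to 0.52 for Hoxb, -0.85 to -0.58 for Hoxc and -0.66 to 0.28 for Hoxd. Over the same fits Hoxc8 ran from -0.80 to 0.47, Hoxd8 from -1.01 to 0.13, Hoxb3 from -1.01 to 2.23, Hoxa7 from -2.64 to -0.18 and Hoxb8 from -1.98 to -0.49. The fewest genes were called without M8 and the most without M10, and the cause was not tested. Depth limits the 27 Hox genes that were not tested.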

Other observations

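The nearest protein-coding genes outside the clusters had values of their own. Skap2, an adaptor protein of leukocytes beside the Hoxa cluster, had 10.1 and 6.35 CPM in M7 and M8 and 106 and 73.0 CPM in M9 and M10 (log2 fold change 3.44, adjusted p = 0.000972), and under macrophage and pan-leukocyte scaling it was at 0.64 and -0.22 and not called. Ttll6, beside Hoxb13, had 1.60 and 3.01 CPM in M7 and M8 and 0.243 and 0.109 CPM in M9 and M10. It passed the expression filter through the SYK WT libraries alone, so its test is not given. Calcoco1, a neighbour of the Hoxc cluster, fell by 0.54 on the log2 scale (adjusted p = 0.0396), and turned to 0.35 under fibroblast scaling. Smug1 (-0.60, adjusted p = 0.0742) and Mtx2, a neighbour of Hoxd (-0.06), did not pass the test.

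Among markers of blood progenitors, Flt3 had 9, 6, 74 and 95 counts in M7, M8, M9 and M10. It passed the expression filter through the SYK KO libraries alone, so its test is not given. Gata2 fell (log2 fold change -1.94, adjusted p = 0.00541), with 310, 358, 79 and 53 counts. Gata2 was not called under fibroblast scaling (adjusted p = 0.0515). Kit, Cd34 and Mecom did not pass the test. Of the other marker lists, 3 of 8 endothelial markers fell and 0 rose, where 16.7% of all genes tested fell and 22.7% rose. Of 2 tested adipocyte markers 1 rose and 0 fell. The mast cell marker Cma1, with 35, 63, 6 and 2 counts in M7, M8, M9 and M10, passed the expression filter through SYK WT alone. The keratinocyte marker Krt10, with 2, 3, 16 and 28 counts, passed it through SYK KO alone, as did the neuroblastoma marker Gata3. Calls in the mast cell, keratinocyte and neuroblastoma lists are therefore not given. These lists are too short to tell such counts from the shares over all genes.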
